A study of Mus musculus with 6 samples.

Results

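The threshold cycle (Ct) table of the series held 31 assays whose names begin with miR-297, miR-466, miR-467 or miR-669, out of 596 mouse miRNA assays. They were taken by name alone, 9 from the first block of rows (pool A) and 22 from the second (pool B), and comprised 3 assays of the miR-297 family, 8 of miR-466, 10 of miR-467 and 10 of miR-669. The cells were macrophages grown from bone marrow for 7 days with L929-conditioned medium; the donor mice were male and 6 to 8 weeks old. All mice lacked Apoe and carried LysM-Cre, a recombinase driven by a promoter of the myeloid lineage. In 3 mice Dicer was wild type (LysM-Cre/Dicerwt/wt, called WT below), and in the other 3 both Dicer alleles were floxed (LysM-Cre/Dicerflox/flox, called KO). Dicer, the RNase that cuts hairpin precursors into mature miRNAs, is then deleted only in cells where the driver is active, and the panel held no assay of its mRNA.

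Most of these miRNAs come from a rodent-specific cluster of tandem hairpins in an intron of Sfmbt2, a Polycomb group gene that is imprinted and strongly expressed in the placenta. The hairpins are copies of a few ancestral units, so members of a family differ by few bases, and each hairpin can give a 5p and a 3p strand, the rarer of which older names mark with an asterisk. Each strand guides Argonaute to messenger RNAs through its seed, bases 2 to 8. In macrophages miR-467b is known as a repressor of lipoprotein lipase. Whether an assay also reads a near-identical relative was not tested, so single members are uncertain to that extent.

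RefSeq (GRCm38.p6) lists 82 miRNA genes of the 4 families, 72 of them inside the span of Sfmbt2 and 10 elsewhere. By gene name, 25 of the 31 assays had all their genes inside Sfmbt2. miR-297a*, with 4 genes, had 3 inside and 1 on chromosome 7, and 5 assays had their gene on another chromosome: miR-466j, miR-466k, miR-467f, miR-467h and miR-669n. The name of the cluster therefore does not cover all members. miR-466a was matched to the RefSeq gene that carries no letter, and miR-467a and miR-669a had 10 and 12 gene copies each, so that their assays cannot be assigned to a single hairpin.

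The RefSeq table held a mature sequence for 5 of the 31 names, the same 5 that lie outside Sfmbt2. They are shown because these members were set against those of the cluster, with the seed in capitals, 5′ to 3′, in the order of the families.
miR-466j: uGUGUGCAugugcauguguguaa
miR-466k: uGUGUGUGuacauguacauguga
miR-467f: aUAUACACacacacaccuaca
miR-467h: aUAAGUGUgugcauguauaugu
miR-669n: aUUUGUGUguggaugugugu

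They lie at chr10:60960802-60960824 (+), chr3:85467396-85467418 (+), chr11:69635419-69635439 (-), chr9:115381898-115381919 (+) and chr3:115979905-115979924 (+) in the same order. miR-467f falls within the span of Fxr2, miR-466k within that of Gm31419 and miR-669n within that of Slc30a7. The 5 sequences had 5 different seeds, and only the seed of miR-467h was found in another RefSeq mature miRNA, miR-668-5p. No mature sequence was found by name for the other 26 members, so a seed shared with one of them could be missed. The longest alternating UG or CA stretch was 12 nt in miR-467f, whose bases were A or C at 18 of 21 positions, and 7 to 9 nt in the others, which were U or G at 15 of 22 (miR-467h) to 18 of 20 positions (miR-669n). The letters UGUGUG occurred in miR-466j, miR-466k, miR-467h and miR-669n, and the reverse complement CACACA in miR-467f. Either was present in 40 of 1679 RefSeq mature sequences (2.38%), read on the given strand. The sequences of the assays themselves were not used here.

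KO macrophages had fewer detected members than WT macrophages. Detection means a Ct below 35, and wells without amplification are listed at 40. WT replicates 1, 2 and 3 had 17, 19 and 18 detected members (18.0 ± 1.0, SD, n = 3) and KO replicates had 11, 15 and 14 (13.3 ± 2.08, SD, n = 3), so the groups did not overlap. Over the other 565 miRNA assays the counts were 290, 289 and 291 in WT and 208, 262 and 276 in KO. KO replicate 1, the lowest of both sets, also had the latest endogenous controls (mean Ct 22.8 in pool A and 22.1 in pool B, beside 19.0 to 21.1 in WT), and the part of this in the counts was not tested. By detection, 17 members were present in all 3 WT samples, 10 in all 3 KO samples and 10 in all 6, while 12 were below the limit in every sample and 10 of these were at 40 throughout. Of the 31 members 9 were detected in fewer KO than WT samples and 0 in more; among all 596 assays these numbers were 116 and 20.

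By family, no test was made of the detected counts. The miR-466 family, read in 5 assays in each WT sample, was read in 2, 3 and 3 in KO. The miR-467 family kept 7, 8 and 8 of the 8 assays seen in each WT sample. Of the assays detected in all WT samples, those of miR-466 had a median WT level of -10.6 relative to the controls (log2). Those of miR-467 had one of -6.42. An assay nearer to the limit passes it with a smaller fall, and this part of the counts was not tested. The miR-669 family went from 3, 5 and 4 detected assays to 2, 3 and 3, and the miR-297 family from 1 in each WT sample to 0, 1 and 0. Strand names were given for 8 members. None of the 4 assays named 5p (miR-297b-5p, miR-466d-5p, miR-466e-5p and miR-669h-5p) was detected in any sample, whereas both 3p assays (miR-466a-3p and miR-466b-3-3p) and miR-297a* were detected in all WT samples. The other passenger strand, miR-467e*, was at 40 in all 6 samples, while its partner assay miR-467e was detected in all 6. The contrast between 5p and 3p holds for the names of the Ct table and turns with those of the authors' deposited table of ratios, where miR-466e-5p and miR-466d-5p carry the values of miR-466a-3p and miR-466g, and both 3p names carry those of assays at 40 in all samples.

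**Figure D1:**
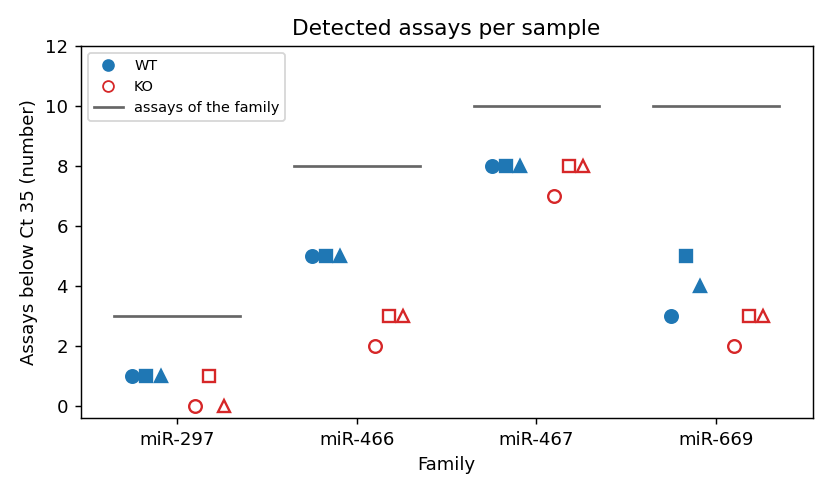
Number of assays below Ct 35 in each sample, by family (filled, WT; open, KO; circle, square and triangle for replicates 1, 2 and 3; grey line, the number of assays in the family). The miR-466 counts fall from 5 in each WT sample to 2 or 3 in KO, while the miR-467 counts stay at 7 or 8. The miR-466 assays had the lower median level in WT, and the contrast was not tested.

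For the test, Ct values at or above 35 were set to 35 and each level was taken as minus the Ct relative to the mean of the 5 endogenous controls of the same pool, on a log2 scale. The 17 members below Ct 35 in all 3 samples of a group entered the fit over 282 assays; all 17 qualified through WT, and 7 of them had at least 1 KO sample at the ceiling, so that their differences depend on the ceiling. In KO macrophages 5 members fell (limma, adjusted p from 0.0340 to 0.0487): miR-466a-3p, miR-466b-3-3p, miR-297a*, miR-467a in pool A and miR-467c. None rose, and 12 did not pass. miR-467a in pool A and miR-467c were measured in all 6 samples. The other 3 entered only through WT, the group where they are high, so the filter itself favoured a lower KO value for them, and without a filter 0 of the 31 members passed (limma; 8 with an unadjusted p under 0.05). This is 29.4% of the tested members, beside 37.2% lower (105 assays) and 0.355% higher (1 assay) among all tested. The difference was negative in 14 of the 17 (82.4%), beside 87.6% of all tested assays, and its median was -1.44 over the 17 members and -1.91 over all 282. In 8 members (47.1%) the highest of the 3 KO levels was under the lowest of the 3 WT levels, beside 59.9% of all tested assays. The number of calls also depended on the kind of reference. Among the endogenous controls, U6 alone left 6 members past the threshold, and U6 with snoRNA135 and snoRNA202 left 5. With the mean of the miRNA assays read in all 6 samples of a pool as reference (the global mean), which moved the median of all assays to -0.20, 10 of the 17 differences were negative and 0 members passed (limma; 1 with an unadjusted p under 0.05), and with no reference 17 were negative and 0 passed (3 unadjusted). With the replicate number as a block 3 members passed, and miR-466b-3-3p and miR-467c did not. Leaving out KO replicate 1 left 3 members past the threshold, leaving out KO replicate 3 left 2, and leaving out KO replicate 2 or any of the WT replicates left 0. Over all assays the main fit passed 106. Without KO replicates 1, 3 and 2 this count was 102, 115 and 4, and without WT replicates 1, 2 and 3 it was 3, 4 and 3. It was 3 with the global mean, 2 with no reference, 3 of 596 without a filter and 119 with the replicate block.

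**Figure D2:**
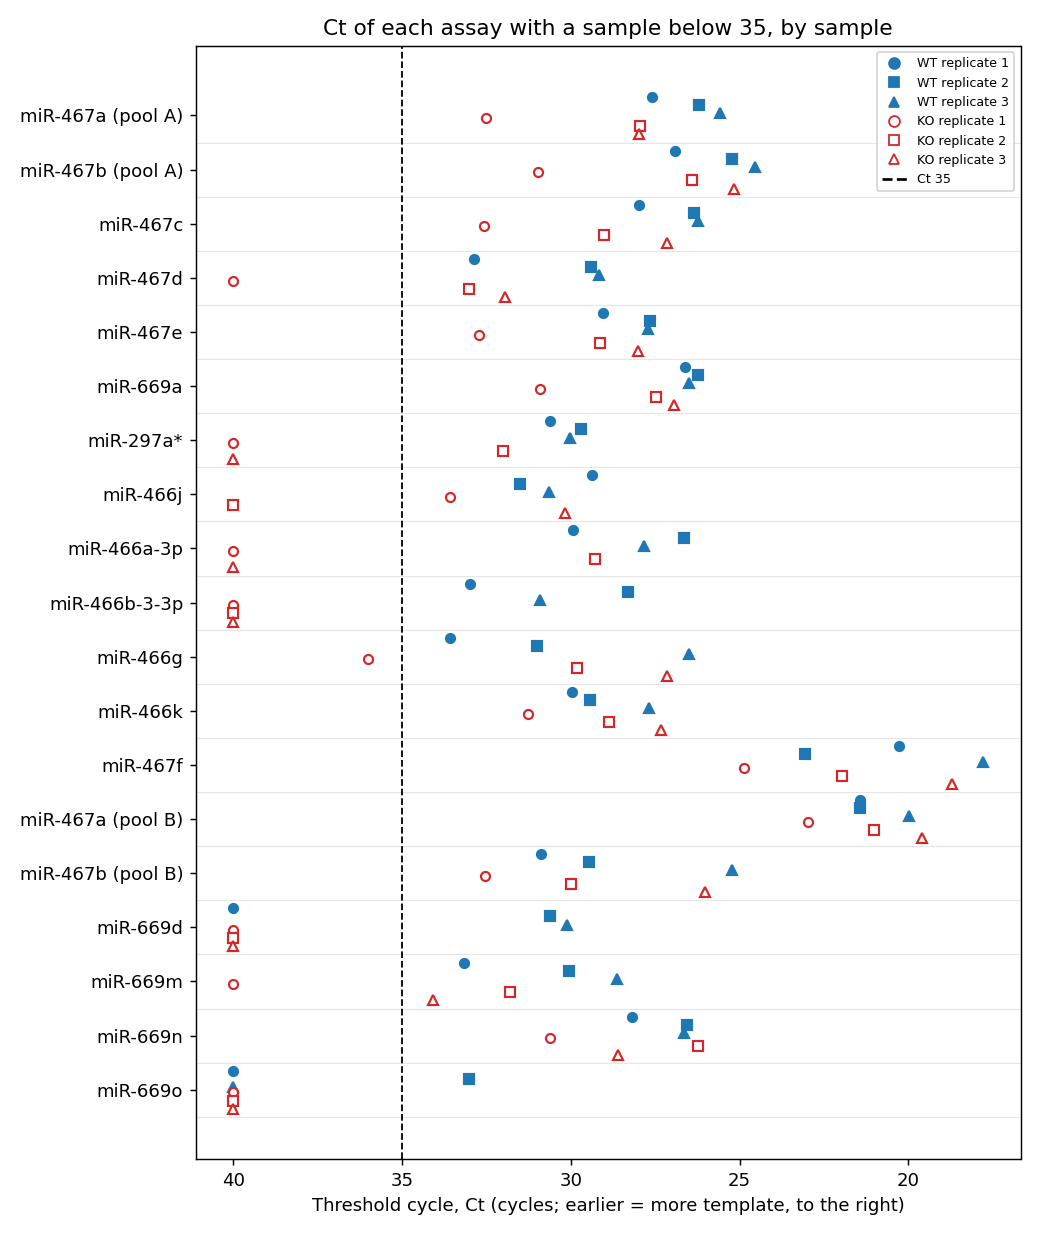
Ct of the 19 members with at least 1 sample below 35, by sample, on an axis that runs toward more template on the right (filled, WT; open, KO; dashed line, Ct 35). The KO samples of miR-466b-3-3p all stand at 40, whereas those of miR-467a in pool B and of miR-466k lie among the WT samples.

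Under the names of the Ct table and with the ceiling at 35, both 3p strands of the miR-466 family had the largest differences of the tested members. The authors' deposited table of ratios gives these values to miR-466e-5p and miR-466j. miR-466a-3p was read at cycles 29.9, 26.7 and 27.8 in WT and at cycles 40, 29.3 and 40 in KO. Only KO replicate 2 was measured, at a level of -10.0, below the WT levels of -8.87, -7.34 and -8.83. The difference was -4.52 ± 1.39 (SE, n = 3 per group; limma, adjusted p = 0.0456) with wells at 40 set to 35. Its size follows the ceiling: it was -2.52 with a ceiling of 32 and -7.85 with one of 40 (adjusted p = 0.0466 and 0.0671), and the call was lost with a fit per pool (0.0871). miR-466b-3-3p, from the hairpin Mir466b-3, was the only tested member that was undetected in all KO samples. That is 1 of the 17 members detected in all WT samples, beside 10 of 277 among all miRNA assays. miR-466b-3-3p was read at cycles 33.0, 28.3 and 30.9 in WT and did not amplify in any KO sample, all at 40. Its difference at the ceiling was -3.84 ± 1.14 (SE; limma, adjusted p = 0.0406, 0.0693 with the replicate block and 0.0871 with a fit per pool). In KO replicate 1 the ceiling corresponds to a level of -12.9, close to the WT levels of -11.9 in replicates 1 and 3. With the highest ceiling of the pool used for all samples the difference was -1.92 (limma, adjusted p = 0.135). That was smaller than the -2.51 of miR-297a* in the same setting, so the rank of miR-466b-3-3p depends on the ceiling.

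The remaining miR-466 assays did not pass. miR-466g, whose gene lies in the cluster, was read at cycles 33.6, 31.0 and 26.5 in WT and at cycles 36.0, 29.8 and 27.2 in KO. Its WT values spanned 7.05 cycles, its difference was 0.14 ± 1.67 (SE; adjusted p = 0.957), and the groups overlapped. miR-466k was read at cycles 30.0, 29.4 and 27.7 in WT and at cycles 31.3, 28.9 and 27.3 in KO, a difference of 0.30 ± 0.67 (SE; adjusted p = 0.748). miR-466j was read at cycles 29.4, 31.5 and 30.7 in WT and at cycles 33.6, 40 and 30.2 in KO; the difference, with 1 KO sample at the ceiling, was -1.98 ± 1.56 (SE; adjusted p = 0.328). KO replicate 3 of miR-466j stood at -10.9, above WT replicates 2 and 3 at -12.2 and -11.7. miR-466d-5p, miR-466e-5p and miR-466h were at 40 in all 6 samples.

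Within the miR-467 family the 5 assays of pool A were all lower on average in KO relative to the controls, and 2 of them fell; relative to the global mean miR-467b and miR-467e turned to 0.50 and 0.64. In pool A 96.6% of all tested assays had a negative difference and 46.9% fell. miR-467a was read at cycles 27.6, 26.2 and 25.6 in WT and at cycles 32.5, 27.9 and 28.0 in KO. The lowest WT level (-6.53) stood above the highest KO level (-7.67), and the fall was 5.44-fold (log2 -2.44 ± 0.67, SE, n = 3 per group; limma, adjusted p = 0.0340). miR-467c was read at cycles 28.0, 26.4 and 26.2 in WT and at cycles 32.6, 29.0 and 27.1 in KO, again without overlap of the levels, and fell 4.42-fold (-2.15 ± 0.70, SE; adjusted p = 0.0487, 0.0561 with the replicate block). miR-467d was the latest of the 5, read at cycles 32.9, 29.4 and 29.2 in WT and at cycles 40, 33.0 and 31.95 in KO. Its difference was -2.28 ± 0.81 (SE; adjusted p = 0.0583), with KO replicate 1 at the ceiling of -12.2, near WT replicate 1 at -11.8. miR-467b, a name that also stands in pool B, was read here at cycles 26.9, 25.2 and 24.5 in WT and at cycles 31.0, 26.4 and 25.2 in KO. KO replicate 3 (-5.82) lay just above WT replicate 1 (-5.84), and the difference was -1.38 ± 0.76 (SE; adjusted p = 0.166). miR-467e was read at cycles 29.0, 27.7 and 27.7 in WT and at cycles 32.7, 29.1 and 28.0 in KO, with a difference of -1.24 ± 0.63 (SE; adjusted p = 0.143); its highest KO level, -8.67, was next to the lowest WT level, -8.61.

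The miR-467 assays of pool B gave other values, also where the name was the same. miR-467a in pool B was read early, at cycles 21.4, 21.4 and 20.0 in WT and at cycles 23.0, 21.0 and 19.6 in KO. Its level of -1.15 ± 0.89 in WT and -0.97 ± 0.73 in KO (SD, n = 3) gave a difference of 0.19 ± 0.68 (SE; limma, adjusted p = 0.844). Within a sample, the level of miR-467a in pool A minus that in pool B was -5.07 ± 1.37 in WT and -7.70 ± 1.57 in KO (SD, n = 3). This gap differed by -2.63 between the groups, with p = 0.2 in an exact two-sided permutation test over samples (0.4 after adjustment over 2 comparisons; 3 samples against 3 cannot give a p under 0.1). Within the same-number pairs it differed by -2.69, -2.37 and -2.83, one sign in 3 of 3, with p = 0.25 in an exact paired permutation test, the smallest that 3 pairs can give. miR-467b in pool B was read at cycles 30.9, 29.5 and 25.2 in WT and at cycles 32.5, 30.0 and 26.0 in KO, with a difference of -0.56 ± 1.44 (SE; adjusted p = 0.779). Its gap between pools, 3.41 ± 2.39 in WT and 2.59 ± 1.84 in KO, differed by -0.82 (exact permutation p = 0.8, also 0.8 after adjustment), and within pairs by -1.70, -0.89 and 0.14. The names do not say whether both assays of a name read the same strand.

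miR-467f had the highest mean level of the tested members in WT, read at cycles 20.3, 23.1 and 17.8 in WT and at cycles 24.9, 22.0 and 18.7 in KO. Its level in WT, -0.57 ± 2.76 (SD, n = 3), was above that of 86.2% of the tested assays, and its spread in WT was larger than that of 96.1% of them. The difference was -1.05 ± 1.54 (SE; adjusted p = 0.613), and KO replicate 3 at 0.57 lay between WT replicates 1 and 2 at 0.81 and -3.75. In KO its mean level, -1.62, was under the -0.97 of miR-467a in pool B. Levels of different assays also depend on how well each amplifies. miR-467h was at 40 in all 6 samples.

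**Figure D3:**
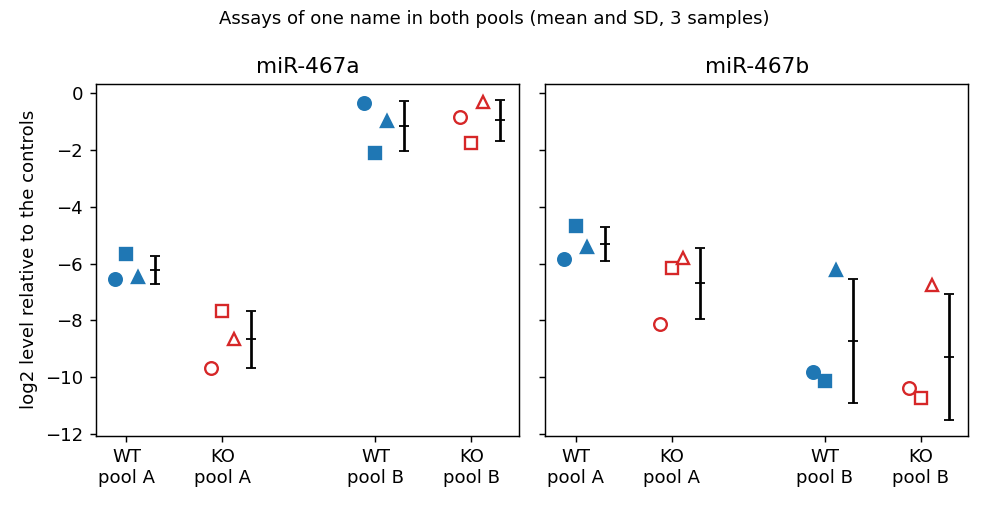
Levels of miR-467a and miR-467b relative to the controls in each pool, by sample (filled, WT; open, KO; circle, square and triangle for replicates 1, 2 and 3; bar, mean and SD, n = 3). The WT and KO levels of miR-467a are separate in pool A and overlap in pool B, and the miR-467b levels overlap in both.

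In the miR-669 family 3 of 10 assays were tested and 0 passed (limma). miR-669a, known as a repressor of muscle differentiation, was read at cycles 26.6, 26.2 and 26.5 in WT and at cycles 30.9, 27.5 and 26.9 in KO. WT replicate 3 (-7.39) lay below KO replicate 2 (-7.21), and the difference was -1.44 ± 0.67 (SE; adjusted p = 0.118). miR-669m, with both its genes in the cluster, was read at cycles 33.2, 30.1 and 28.6 in WT and at cycles 40, 31.8 and 34.1 in KO. Each KO level was below each WT level, with a difference of -2.57 ± 0.89 (SE; adjusted p = 0.0562, 0.102 with the replicate block). miR-669n was read at cycles 28.2, 26.6 and 26.6 in WT and at cycles 30.6, 26.2 and 28.6 in KO. Its WT levels had the smallest SD of the tested members (0.27), KO replicate 2 (-6.98) lay above all of them, and the difference was -0.94 ± 0.70 (SE; adjusted p = 0.305).

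The untested miR-669 assays gave little signal in KO. miR-669d was at 40, 30.6 and 30.1 in WT and at 40 in all KO samples. miR-669o was read at 33.0 in WT replicate 2 and at 40 in the other 5 samples. miR-669h-5p (36.0, 40 and 36.1 in WT) and miR-669l (38.8 in WT replicate 2) were past the limit and at 40 in KO. miR-669c, miR-669e and miR-669g were at 40 throughout. The 4 partly amplified assays, miR-669d, miR-669o, miR-669h-5p and miR-669l, were picked because a well had amplified. They had a Ct under 40 in 6 of 12 WT wells and 0 of 12 KO wells. Wells of different assays are not replicates, and no like count was made over the other assays, so nothing is concluded from these numbers.

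The miR-297 family was represented by miR-297a*, since miR-297b-5p and miR-297c were at 40 in all samples. miR-297a* was read at cycles 30.6, 29.7 and 30.0 in WT and at cycles 40, 32.02 and 40 in KO. All KO levels, at -12.8 or lower, were below the WT levels of -9.53, -10.4 and -11.0, with 1 KO sample measured. With the wells at 40 set to 35 the difference was -3.46 ± 0.93 (SE, n = 3 per group; limma, adjusted p = 0.0340, 0.0871 with a fit per pool). With a ceiling of 32 it was -1.46 (adjusted p = 0.196) and with one of 40 it was -6.80 (0.0518).

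Grouped by location, the 12 tested assays with all their genes inside Sfmbt2 had a median difference of -1.79, with 4 that fell and 8 that did not pass. The 4 tested assays with a gene elsewhere had a median of -0.99, from -1.98 to 0.30, and 0 fell (limma, adjusted p from 0.305 to 0.748). KO was lower than WT in each of the 3 same-number pairs for 10 of the 12 and for 0 of the 4. Among all 282 tested assays this held for 204 (72.3%), with 83.8% in pool A and 52.4% in pool B. Of the cluster assays it held for 6 of 6 in pool A and 4 of 6 in pool B. Location moves with the pool: the assays outside the cluster were all in pool B, where 21 of 103 tested assays fell (20.4%; median -1.15), whereas in pool A 84 of 179 did (46.9%; median -2.03). Within pool B the 6 tested assays of the cluster had a median of -1.57 with 2 that fell, so that the medians of both locations lay closer there. The part of the pool in the contrast was not tested.

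**Figure D4:**
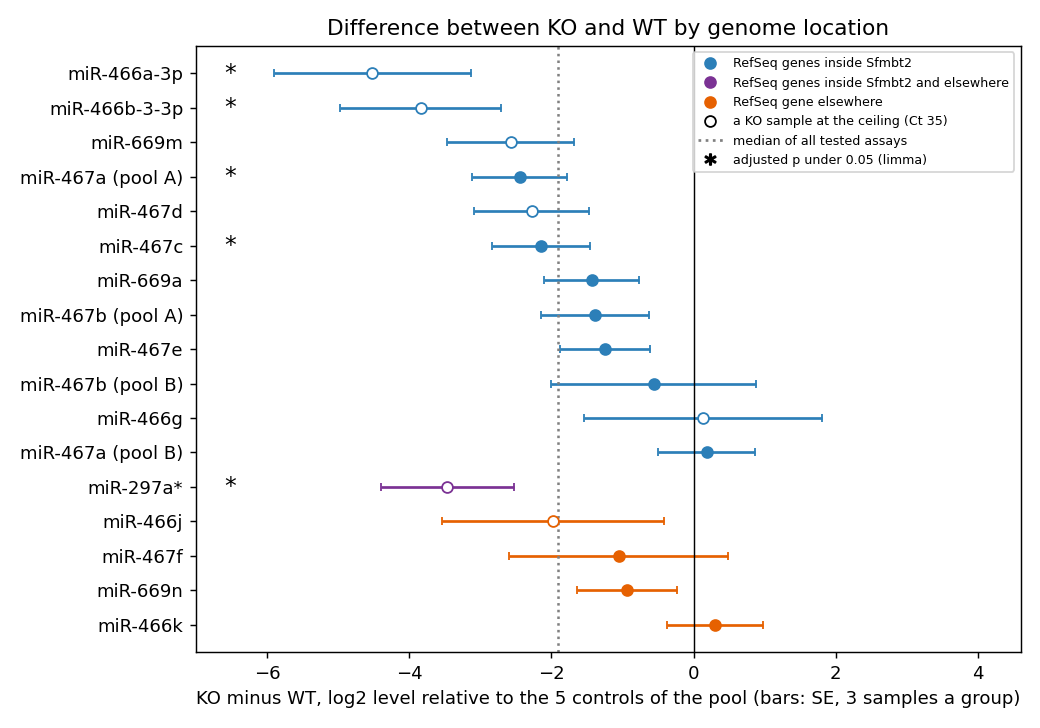
KO minus WT difference of the 17 tested members on the log2 scale (point, difference; bar, SE, n = 3 per group; colour, location of the RefSeq genes; open point, at least 1 KO sample at the ceiling; asterisk, adjusted p under 0.05; dotted line, the median of -1.91 over all tested assays). The 4 assays with a gene elsewhere lie between -1.98 and 0.30, and those of the cluster between -4.52 and 0.19.

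In miR-467b of pool B and miR-466g, same-number samples of both genotypes lay closer together than the span of the WT levels. Both assays were singled out for this after their values were seen. For miR-467b in pool B the KO minus WT differences of the same-number pairs were -0.58, -0.58 and -0.53, although its levels spanned from -10.7 to -6.22. miR-466g gave -0.37, 1.15 and -0.37 in the same way, with WT levels from -12.5 to -7.51. With the replicate block their SE fell from 1.44 to 0.35 and from 1.67 to 0.50, which follows from how they were picked. Neither passed (limma with the block, adjusted p = 0.235 and 0.830), and the other assays whose SE fell were not counted. The spread within WT was larger in the tested members than in all tested assays, with a median SD of 0.89 against 0.57, and their median WT level was lower, -8.35 against -5.85.

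As a comparison, 27 assays of the X-linked clusters that are also particular to rodents were taken as a list. Of these 16 were at 40 in all samples and 6 were tested. Of the tested assays 1 fell (16.7%) and the median difference was 0.30, beside 37.2% and -1.91 over all tested assays. The assay that fell, miR-547, was in pool A, where 46.9% of tested assays fell, beside 20.4% in pool B. The part of the pool in these values was not tested. The labelled cell type was checked with marker miRNAs: the 6 of macrophages and other myeloid cells were detected in all 6 samples, with mean Ct values from 15.6 to 26.0 in WT. The lymphocyte miRNA miR-150 (26.9), the 4 stromal miRNAs (24.4 to 27.4) and the 5 epithelial ones (24.9 to 30.3) were also detected in all WT samples, and the 1 erythroid assay found was not (36.7). The part of other cells in the members' values was not tested. Fewer cells that make a miRNA and less of it per cell cannot be told apart in these bulk samples.

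The deposited tables disagree on which name 10 of the 31 members carry. The authors' deposited table of ratios lists the same names in the same order as the Ct table, and in 563 of 596 rows its values equal those computed from the Ct row of that name (all 6 samples within 0.02 on the log2 scale). In the other 33 rows they equal those of another name. The Ct table lists capital letters first, and for the 12 miR-466 and miR-467 rows of pool B the ratios equal those of the Ct rows sorted without regard to case in 12 of 12. The row named miR-466e-5p in the authors' deposited table holds the values of miR-466a-3p, that of miR-466j those of miR-466b-3-3p, that of miR-466d-5p those of miR-466g and that of miR-466g those of miR-466j. Likewise miR-467f holds the values of miR-467a in pool B, miR-467h those of miR-467b in pool B and miR-467b in pool B those of miR-467f, while miR-466a-3p, miR-466b-3-3p and miR-467a in pool B hold those of assays at 40 in all samples. The authors' deposited table of fold changes follows the ratio table, so that it lists miR-466a-3p at 1.70 and miR-466j at 0.00192 (KO over WT). Outside the families the ratio table also exchanges miR-21 with miR-210 in pool A. There the Ct table has miR-21 at 17.7, 17.9 and 17.0 in WT and miR-210 at 22.4, 22.4 and 19.6. The ratio table also gives miR-1, at 40 throughout the Ct table, the values of miR-100. How the rows outside the families came to be exchanged was not tested. All values above use the names of the Ct table. With the names of the ratio table the counts and medians of each family are the same, since the exchanged rows stay within a family, but miR-466j would be the member outside the cluster that fell, and the median outside Sfmbt2 would be -0.56 over 5 assays.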

How the data were processed

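Total RNA went through TaqMan reverse transcription and preamplification, per the labels' protocols; which instrument and software followed is not given in the sources used here. Of the deposited tables, that of Ct scores was used for every test, and those of ratios (relative quantities and fold changes of KO over WT), made by the authors, only to compare names. The members and lists were chosen with earlier results of these data known. Ct values at or above 35 were set to 35, and the mean Ct of U6, U87, Y1, snoRNA135 and snoRNA202 of the same pool was subtracted. The genotypes were compared by limma 3.58.1 (lmFit and eBayes, R 4.3.3; two-sided). P values were adjusted by Benjamini-Hochberg over the 282 assays below 35 in all 3 samples of a group, with a threshold of 0.05. The fit was tested on simulated data.

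All tested members are named, with each untested member below Ct 40 in any sample. Sequences and genes are from RefSeq tables (GRCm38.p6). The number of samples limits the precision, input is known through the controls alone, and the reference, ceiling and filter also move the values. The labels call the samples biological replicates, from 3 mice per group. The main fit has no pairing. Deviations from the group means correlated across the tested assays between samples of the same number (0.23, 0.28 and 0.27). Between samples of unlike number the correlations ran from -0.28 to 0.010. The replicate numbers were therefore also treated as pairs, beside the main fit. This pairing rests on these values alone, as the labels name no batch. Other references, ceilings, filters and left-out samples were tried. Python 3.11.15, pandas 2.3.3, numpy 2.4.6, scipy 1.17.1 and matplotlib 3.10.9 were used.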

Additional observations from a re-analysis of the deposited data

How the results depend on the processing

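The number of the 31 members past the threshold, 5, was 0 with the global mean as reference, 0 without a reference, 3 with a ceiling of 32, 2 with a ceiling of 40, 2 with only assays below the ceiling in all 6 samples, 0 without a filter, 3 with the replicate block and 3 with a fit per pool, and 0 to 3 with a sample left out. The median difference of the tested members was -0.29 with the global mean, -2.01 without a reference and -0.23 without a filter, and -1.98 to -1.21 with a sample left out; the count of members with all KO below all WT samples, 8, was 1 with the global mean and 4 without a reference. The count over all assays, 106, was 3, 2 and 3 with the global mean, without a reference and without a filter, and 3 to 115 with a sample left out. U6 alone, the 3 controls U6, snoRNA135 and snoRNA202, a ceiling of 38, both floors set after scaling and the names of the ratio table gave 4 to 6 members; the highest floor, these names and the paired test of miR-467a were chosen after seeing the data.

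The 5 members that fell, picked for being lower, kept their direction in the 17 to 20 other settings in which each was tested. Fewer of these settings kept them past the threshold. These were 12 of 20 for miR-467a in pool A, 8 of 20 for miR-467c and 9 of 19 for miR-297a*. For miR-466a-3p they were 6 of 18 and for miR-466b-3-3p 6 of 17. With the names of the ratio table miR-466a-3p and miR-466b-3-3p were not tested. The signs of members that did not pass turned as follows. With the global mean miR-467b in pool A, miR-467e, miR-669a and miR-467b in pool B were at 0.50, 0.64, 0.45 and 0.081. With U6 alone and without a reference miR-467a in pool B was at -0.090 and -0.24 and miR-466g at -0.14 and -0.29, and without a reference miR-466k was at -0.13. miR-466g was at -0.20 with a ceiling of 38 or 40, -0.91 with the lowest floor after scaling and -1.98 with the names of the ratio table, which put miR-467f at 0.19. With a sample left out miR-466g ranged from -1.14 to 1.67, miR-466k from -0.15 to 0.64, miR-467a in pool B from -0.29 to 0.58 and miR-467b in pool B from -1.83 to 0.69. The cause of these changes was not tested. Fewer or more assays also enter the fit under other filters and ceilings. Detected members, 4.67 fewer in KO, were 5.67, 5.00 and 5.33 fewer with limits of 32, 38 and 40. Differences with wells at Ct 35 or later depend on the ceiling.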
